A study of Mus musculus with 4 samples.

Results

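The genes described here are 7 genes of the sterol synthesis pathway in mouse microglia: the mevalonate pathway enzymes Hmgcs1, Idi1 and Fdps, the later sterol enzymes Sqle and Cyp51, and the regulators Insig1 and Srebf2. They were chosen by name, with earlier results of these data known. All 7 were found among the 54532 annotated genes of the count tables, and all 7 passed the minimum of 10 summed counts, which left 13811 protein-coding genes for testing. None of the 7 is itself a receptor for lipoprotein uptake, and the uptake genes that were examined are described below as a separate list. Poly(A) RNA was sequenced from primary microglia of CD1 mice, an outbred strain, in 4 libraries. The 2 EGCG libraries came from microglia that received 1 µM epigallocatechin gallate (EGCG), a green tea flavanol, for 24 h, and the 2 Vehicle libraries from microglia without it over the same time. The flavanol had been dissolved in DMSO. Microglia had been grown in mixed glial cultures from male pups in the first days after birth, and were left on the plate when the astrocyte layer was lifted off with trypsin. The microglia of both groups were kept without serum in a medium that held IL-34, TGFβ2, GM-CSF and added cholesterol. Each group had a library numbered replicate 1 and a library numbered replicate 2, which the labels call biological replicates. The number of pups behind a culture was not given in the sources used here. Total counts ranged from 33805071 to 54970300 per library.

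Cells make cholesterol from acetyl units. Hmgcs1 condenses them to HMG-CoA, Idi1 and Fdps build the isoprenoid chains, Sqle puts the first oxygen on squalene, and Cyp51 removes a methyl group from lanosterol. Most of these enzyme genes are switched on together by SREBP2, the transcription factor encoded by Srebf2. When sterol is plentiful, Insig1 holds the SREBP2 precursor in the endoplasmic reticulum. When sterol is scarce, the precursor is carried to the Golgi and cut there, and the released factor enters the nucleus. Insig1 and Srebf2 are themselves targets of SREBP2. In the adult brain cholesterol is made locally, and microglia also take it up when they clear lipid-rich debris.

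The proximal promoters are shown because SREBP2 acts through short elements that lie just before the start of its target genes, usually beside sites for the factor NF-Y or for Sp1. RefSeq promoters (GRCm38.p6) were found for 5 of the 7 genes, Hmgcs1, Idi1, Cyp51, Insig1 and Srebf2. The 250 bases before the RefSeq start were searched on both strands for a sterol regulatory element written TCACNCCAC, for the NF-Y box CCAAT and for the Sp1-type GC box GGGCGG. The matches in these promoters did not overlap one another. The lines show only the part that lies before the gene start given in the count tables, 5′ to 3′, with motif matches on either strand in capitals.
Hmgcs1 (chr13:119690101-119690350, plus strand): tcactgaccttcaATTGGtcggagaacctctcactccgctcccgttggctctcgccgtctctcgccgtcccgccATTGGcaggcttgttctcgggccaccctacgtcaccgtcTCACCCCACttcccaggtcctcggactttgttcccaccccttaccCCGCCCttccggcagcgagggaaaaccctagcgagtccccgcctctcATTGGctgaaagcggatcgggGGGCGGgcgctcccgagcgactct
Insig1 (chr5:28071162-28071362, plus strand): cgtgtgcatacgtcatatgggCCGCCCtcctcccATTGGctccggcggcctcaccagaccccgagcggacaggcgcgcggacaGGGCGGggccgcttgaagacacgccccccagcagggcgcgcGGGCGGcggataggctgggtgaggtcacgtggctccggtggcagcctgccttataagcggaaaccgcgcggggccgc
Srebf2 (chr15:82147019-82147180, plus strand): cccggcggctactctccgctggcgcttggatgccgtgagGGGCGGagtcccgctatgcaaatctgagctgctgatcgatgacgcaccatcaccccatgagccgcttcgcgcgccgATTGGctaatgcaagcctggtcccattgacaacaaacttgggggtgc

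The sterol regulatory element in these letters was present in 1 of the 5 promoters, that of Hmgcs1, where it spanned bases -137 to -129 before the start. It was present in 1.05% of the 32851 RefSeq promoters and in 1 of 44 promoters of the pathway genes listed below, the members included. The NF-Y box was found in 5 of 5 member promoters and in 33.8% of all promoters, and the GC box in 5 of 5 and in 32.7%. Hmgcs1 held 3 NF-Y boxes and Idi1 held 2, and the other three promoters held 1 each. The plot of motif positions sets these matches on a common scale. A match of letters was not tested for binding.

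**Figure D1:**
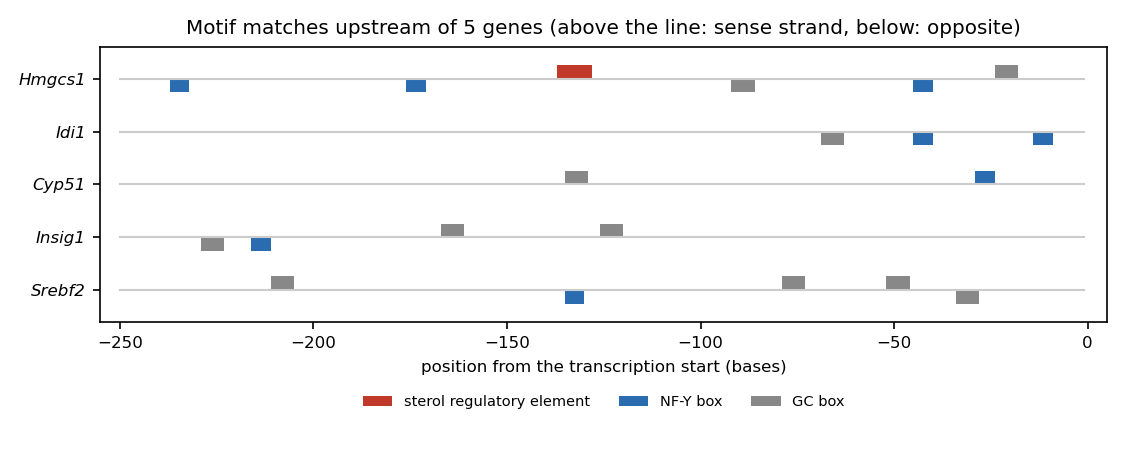
Motif matches in the 250 bases before the RefSeq start of 5 of the genes, plotted by distance from the start in bases. An exact match to the letters TCACNCCAC of the sterol regulatory element appears in Hmgcs1 only, and variants of the element were not searched. Every promoter holds at least 1 NF-Y box and at least 1 GC box.

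The 7 genes covered a wide range of levels. On the scale of CPM, the reads of a gene relative to the TMM-scaled total of its library, per kilobase of gene length, averaged over the 4 libraries, Hmgcs1 was the highest at 17.4, which ranked 2576 of the 13811 genes tested. Insig1 and Srebf2 followed at 10.9 and 10.7, Cyp51 lay at 4.26, Sqle at 1.97, Idi1 at 1.48 and Fdps at 0.156. Insig1 and Srebf2 did not differ beyond their spread, since Insig1 was above Srebf2 in both replicate 1 libraries and in EGCG replicate 2 and below it in Vehicle replicate 2, at 7.87 against 8.92 CPM per kilobase. Sqle and Idi1 also changed places, with Sqle higher in both libraries of replicate 1 and Idi1 higher in both of replicate 2. Fdps was the lowest of the 7 in every library.

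The study asked how EGCG changes the microglial transcriptome. None of the 7 genes passed the test between EGCG and Vehicle at an unadjusted p under 0.05, a threshold that 16 of the 13811 genes, 0.116%, passed in edgeR. No gene passed at an adjusted p under 0.1 (0 genes) in edgeR. This fit, by treatment alone, left the replicate difference in its error and recovered 0% of simulated log2 differences of 1.5 in edgeR. A lack of calls in it therefore does not show a lack of change. The study itself, with DESeq2, reported genes past both thresholds. Both replicate 1 libraries lay above both replicate 2 libraries in CPM for 7 of the 7 genes, where 37.4% of all genes showed that order. That order puts a high and a low library in each treatment group. The 2 treatment groups therefore had to overlap for 7 of the 7, and this overlap gives no information on EGCG. Treatment groups did not overlap for 11.9% of all genes tested. Both comparisons are described gene by gene along the pathway.

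Hmgcs1 (ENSMUSG00000093930, chr13:119690379-119708260, plus strand) encodes the cytosolic HMG-CoA synthase. Its level was 105 CPM in Vehicle and 108 CPM in EGCG of replicate 1, and 52.9 and 53.4 CPM in replicate 2. Vehicle averaged 79.1 ± 37.1 CPM and EGCG 80.7 ± 38.7 CPM (SD, n = 2), while replicate 1 averaged 107 ± 1.94 CPM and replicate 2 53.1 ± 0.338 CPM (SD, n = 2). The treatments were thus nearly equal within a replicate, with log2 differences of 0.04 and 0.01, and replicate 1 was 2.01-fold above replicate 2. The fitted EGCG log2 fold change was 0.03 ± 0.51 (SE, n = 2 per group), with an edgeR unadjusted p of 0.958. The difference of replicate 2 from replicate 1 was -1.01 ± 0.06 (SE, 2 libraries each), with an edgeR adjusted p of 0.00025. Each replicate number holds an EGCG and a Vehicle library. The SD within a replicate, and the SE and p of replicate differences here and below, come from those libraries. They do not measure spread between cultures. At these counts, 1978 to 3533 reads per library, counting error was small, and the 95% interval of the EGCG effect with replicate in the fit ran from 0.923-fold to 1.12-fold.

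Idi1 (ENSMUSG00000058258, chr13:8885501-8892451, plus strand) encodes the isomerase that interconverts isopentenyl and dimethylallyl diphosphate. CPM values were 7.32 in Vehicle and 5.51 in EGCG of replicate 1, and 3.96 and 3.98 in replicate 2. Only in replicate 1 did the counting interval of the EGCG difference leave out 0, at a log2 difference of -0.41 (95% interval -0.70 to -0.13), and no such difference was seen in replicate 2, at 0.01. The fitted EGCG change was -0.25 ± 0.43 (SE), with an edgeR unadjusted p of 0.590. Between replicates Idi1 differed by -0.68 ± 0.17 (SE; edgeR adjusted p = 0.0251). It was the least stable of these replicate calls together with Fdps, since DESeq2 gave an adjusted p of 0.113 for it.

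Fdps (ENSMUSG00000059743, chr3:89093588-89101959, minus strand) encodes the synthase that makes farnesyl diphosphate. It was counted with 48 reads in Vehicle and 24 in EGCG of replicate 1, and with 6 and 17 reads in replicate 2, which is 1.43, 0.734, 0.160 and 0.302 CPM. EGCG was the lower library in replicate 1 and the higher in replicate 2, and the fitted change of -0.63 ± 1.22 (SE) had an edgeR unadjusted p of 0.634. Its replicate difference was -2.14 ± 0.64 (SE; edgeR adjusted p = 0.0458). The counts of Fdps are uncertain because 6 processed pseudogenes share at least 90% of their sequence with it over 200 bases or more, and Gm3571 alone, at 98.87% identity, received 52, 47, 19 and 39 reads in the same order of libraries. Gm43738, annotated as protein-coding, also overlaps Fdps on the same strand with 100% identity over 929 bases, and had 0 reads in every library. Whether reads shared with it were dropped in the counting was not tested. With the pseudogenes added, Fdps stood at 2.99 and 2.23 CPM in replicate 1 and at 0.802 and 1.05 CPM in replicate 2. The order of the replicates was therefore the same with and without the pseudogenes.

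Sqle (ENSMUSG00000022351, chr15:59315077-59331192, plus strand) encodes squalene epoxidase, an oxygen-dependent step that commits squalene to sterols. Its level was 17.5 CPM in Vehicle and 16.1 CPM in EGCG of replicate 1, against 4.39 and 5.70 CPM in replicate 2. The 2 replicates were 3.34-fold apart and the treatments pointed in opposite directions within them, at log2 differences of -0.13 and 0.38. The fitted EGCG change was -0.01 ± 0.88 (SE; edgeR unadjusted p = 0.989), and with replicate in the fit it was 0.11 ± 0.15 (SE; edgeR unadjusted p = 0.489), so its sign depended on the fit. The replicate difference was -1.74 ± 0.15 (SE; edgeR adjusted p = 0.000871).

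Cyp51 (ENSMUSG00000001467, chr5:4081145-4104746, minus strand) encodes lanosterol 14-demethylase. CPM values were 26.4 and 22.4 in Vehicle and EGCG of replicate 1, and 13.5 and 13.1 in replicate 2. EGCG was the lower library in both replicates, by log2 differences of -0.24 and -0.04. The counting interval left out 0 in replicate 1, at -0.38 to -0.10, and held 0 in replicate 2. The fitted change was -0.17 ± 0.46 (SE; edgeR unadjusted p = 0.732). The replicate difference was -0.87 ± 0.09 (SE; edgeR adjusted p = 0.00136). Cyp51 overlaps Akap9 on the opposite strand, which received 1490, 1466, 2505 and 3243 reads in the order Vehicle and EGCG of replicate 1 and Vehicle and EGCG of replicate 2, and the strand setting of the counting was not given in the sources used here. Whether reads of Akap9 entered the counts of Cyp51 was not tested.

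Insig1 (ENSMUSG00000045294, chr5:28071363-28078662, plus strand), the sterol-dependent brake on SREBP processing, was at 42.1 CPM in Vehicle and 41.6 CPM in EGCG of replicate 1, and at 24.3 and 27.2 CPM in replicate 2. The EGCG difference was close to 0 in replicate 1, at -0.02, and 0.16 in replicate 2, with a counting interval there of 0.04 to 0.28. Its fitted EGCG change was 0.05 ± 0.38 (SE; edgeR unadjusted p = 0.901), and the replicate difference was -0.70 ± 0.07 (SE; edgeR adjusted p = 0.00124).

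Srebf2 (ENSMUSG00000022463, chr15:82147181-82205379, plus strand), which encodes the transcription factor SREBP2, was at 92.4 CPM in Vehicle and 87.9 CPM in EGCG of replicate 1, and at 64.0 and 62.9 CPM in replicate 2. EGCG was slightly the lower library in both replicates, at -0.07 and -0.03. The fitted EGCG change was -0.05 ± 0.28 (SE; edgeR unadjusted p = 0.856). Srebf2 had the smallest replicate difference of the 7 genes, -0.51 ± 0.06 (SE; edgeR adjusted p = 0.00191), a 1.42-fold difference.

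**Figure D2:**
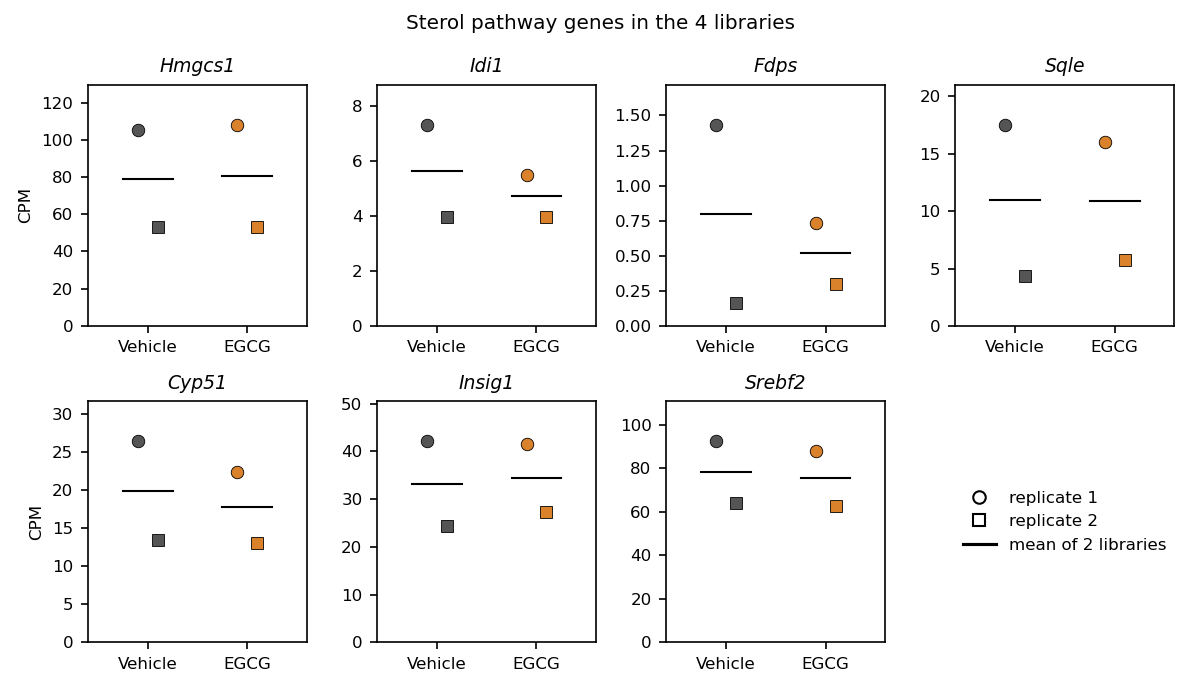
Level of each of the 7 genes in the 4 libraries, in CPM on linear axes that start at 0, with Vehicle in grey, EGCG in orange, circles for replicate 1, squares for replicate 2 and a line at the mean of the 2 libraries of a treatment. In every panel both replicate 1 libraries sit above both replicate 2 libraries, an order in which the treatments must overlap.

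None of these 7 genes was called for EGCG at an unadjusted p under 0.05 in edgeR, with or without replicate in the fit. Taken within replicates, EGCG was the lower library for 6 of 7 genes in replicate 1 and for 2 of 7 in replicate 2, and 3 of 7 had the same sign in both. The median EGCG differences were -0.13 and 0.01, against 0.03 and 0.002 over all genes tested. The counting interval of the EGCG difference held 0 for 4 of 7 genes in replicate 1 and for 5 of 7 in replicate 2. That interval lay below 0 for Idi1, Fdps and Cyp51 in replicate 1, and above 0 for Sqle and Insig1 in replicate 2. The counts of signs and intervals have no share over all genes beside them. The libraries of a replicate also differed by more than counting error, with a chi-square per gene of 12.36 in replicate 1 and 10.32 in replicate 2. The largest EGCG difference of each gene was smaller than its smallest replicate difference for 7 of 7, a count without a share over all genes beside it. The replicate difference cancels within a replicate, so this count does not measure the EGCG effect. Fitted changes had a median of -0.05, against 0.01 over all genes tested. With replicate in the fit, the 95% interval of the EGCG effect held 0 for 7 of 7 genes, while 3.21% of all genes (444) passed an unadjusted p under 0.05 in edgeR and 0.00724% (1 gene) an adjusted p under 0.1. In that fit Srebf2 lay between 0.874-fold and 1.07-fold, Insig1 between 0.930-fold and 1.18-fold and Cyp51 between 0.777-fold and 1.06-fold. Fdps, with few reads, was held only between 0.285-fold and 2.76-fold. EGCG replicate 1 also stood apart from Vehicle replicate 1 in stromal and several astrocyte markers, given below. The part of this in the EGCG differences was not tested. A 2 against 2 design allows no two-sided permutation p below 0.333.

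**Figure D3:**
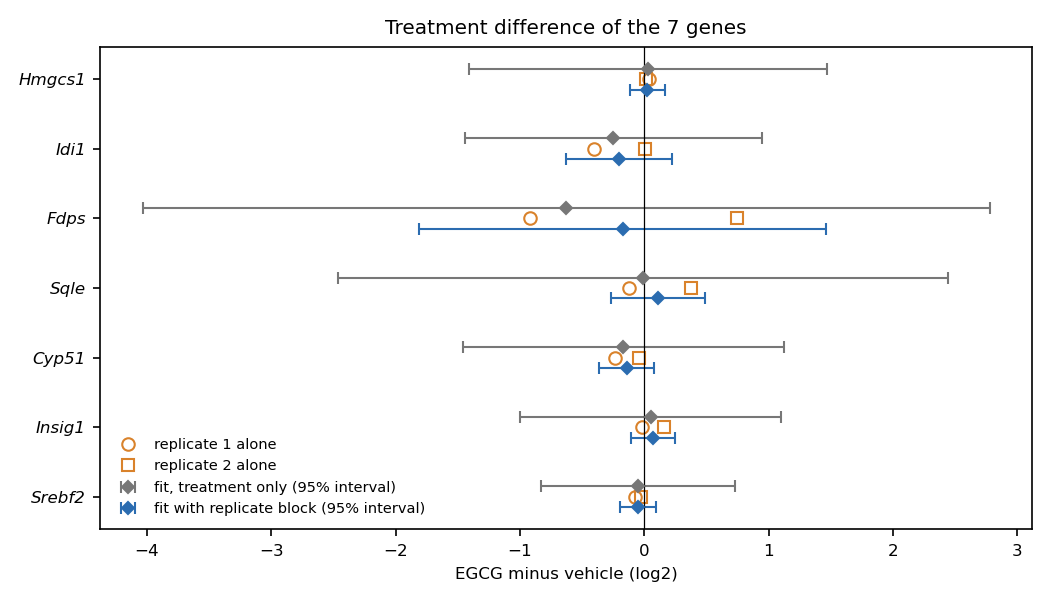
EGCG minus Vehicle log2 difference of each gene in replicate 1 and in replicate 2, with the fitted value and its 95% interval by treatment alone (grey) and with replicate in the fit (blue). Both intervals hold 0 for 7 of 7 genes, and the blue ones are the narrower.

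In the 48 other genes of the sterol lists, EGCG made no call either (0 at an unadjusted p under 0.05 in edgeR). Over the 20 synthesis enzymes examined, members included, the fitted EGCG change ranged from -0.63 to 0.14 with a median of -0.01. Outside the members, the lowest value was that of Pmvk, phosphomevalonate kinase, at -0.25 (edgeR unadjusted p = 0.299) and the highest that of Sc5d, a sterol desaturase, at 0.14 (edgeR unadjusted p = 0.477). Among regulators the extremes were Scap at -0.08 and Mbtps2 at 0.14, among uptake genes Vldlr at -0.27 and Lipa at 0.20, among fatty acid genes Scd1 at -0.67 and Acss2 at 0.16, and among genes of the LXR list Ch25h at -0.24 and Nr1h3 at 0.11, each with an edgeR unadjusted p above 0.3. With replicate in the fit, 1 of the 48 passed that threshold, Lipa, the lysosomal acid lipase, at 0.19 (edgeR unadjusted p = 0.0316).

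Replicate 2 was lower than replicate 1 for 7 of the 7 genes at an adjusted p under 0.1 in edgeR, where 25.7% of all genes tested were called lower, 27.7% higher and 53.5% either way. The median difference of the 7 was -0.87, against 0.01 over all genes, and it was -0.97 in Vehicle and -0.77 in EGCG alone. Fdps, Sqle and Hmgcs1 differed the most, and Idi1, Insig1 and Srebf2 the least. The 2 replicates were deposited as separate tables of counts, and a difference between cultures and a difference in preparation or processing cannot be told apart. The 7 genes together took 0.029% and 0.0269% of the reads of the replicate 1 libraries, Vehicle and EGCG, and 0.0168% and 0.0171% in replicate 2.

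The other enzymes of cholesterol synthesis went partly the same way. Of the 20 enzymes, members included, 12 were lower in replicate 2, 1 was higher and 7 did not pass the test, with a median of -0.59. Over all genes tested, 25.7% were lower and 27.7% higher. Among the 15 that are not members, 7 were lower and 1 higher, with a median of -0.12. Before squalene, Mvd, which decarboxylates mevalonate diphosphate, differed by -0.90 and Fdft1, squalene synthase, by -0.62, while Acat2, Mvk, Pmvk and Ggps1 did not pass. After squalene, Dhcr7, which reduces the last ring double bond, differed by -1.02 and Hsd17b7 by -0.84. Lss, the cyclase that makes lanosterol, differed by -0.63, Msmo1 by -0.57 and Tm7sf2 by -0.56. Lbr, the second sterol C14 reductase beside Tm7sf2, was the exception at 0.82 (edgeR adjusted p = 0.0105). Nsdhl, Ebp and Sc5d did not pass the test.

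**Figure D4:**
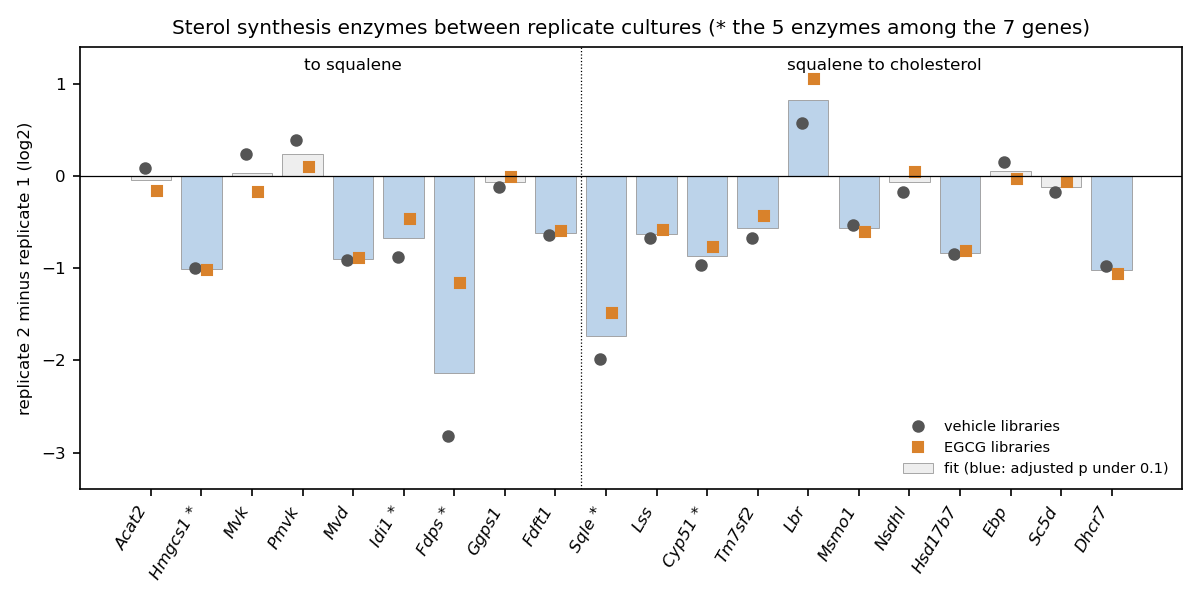
Replicate 2 minus replicate 1 log2 difference of each of the 20 cholesterol synthesis enzymes in pathway order, as bars for the fit (blue where the adjusted p is under 0.1 in edgeR), circles for the Vehicle libraries and squares for the EGCG libraries. Blue bars lie below 0 for 12 enzymes and above 0 for Lbr, and asterisks mark the 5 enzymes among the 7 genes.

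Of the 10 genes of SREBP control, 3 were lower in replicate 2 and 3 higher, near the shares of 25.7% and 27.7% over all genes tested. The lower were Insig1, Srebf2 and Scap, the escort of the precursor, the last by a small difference of -0.16. The higher were Mbtps1, the site-1 protease, at 0.34, Erlin1 at 0.24 and Erlin2 at 0.25. Srebf1, which encodes SREBP1, at 0.11 (edgeR adjusted p = 0.189) and Insig2, the second Insig, at -0.04 (edgeR adjusted p = 0.750) did not pass, and neither did Mbtps2 and Rnf139. The list median was 0.03.

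Genes of sterol uptake, transport and storage were mixed. Of 9, 5 were lower in replicate 2 and 2 higher, where 25.7% of all genes tested were lower and 27.7% higher. Stard4, a cholesterol carrier protein, differed by -1.23 and Lrp8, a lipoprotein receptor, by -1.18, with Lrp8 at 4.90 and 3.58 CPM in replicate 1 and 1.68 and 2.01 CPM in replicate 2. Lipa differed by -0.58, Gramd1b by -0.42 and Soat1, the cholesterol esterifying enzyme, by -0.17. Mylip, a ubiquitin ligase that sends lipoprotein receptors for degradation and a target of the sterol-activated LXR receptors, was higher in replicate 2, at 80.8 and 82.5 CPM against 197 and 176 CPM, a difference of 1.19. Gramd1a was also higher, at 0.65. The LXR list, which holds LXR targets and the receptor genes Nr1h2 and Nr1h3, included Abca1, the cholesterol exporter, which was at 895 and 931 CPM in replicate 1 and at 2541 and 2304 CPM in replicate 2, a difference of 1.41. Abcg1 differed by 0.35 and Lpcat3 by 0.54, and Ch25h, which makes 25-hydroxycholesterol, went the other way at -1.14. Over the 8 genes of that list 4 were higher and 1 was lower, beside the same shares over all genes, with a median of 0.23.

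Fatty acid synthesis genes, many of which answer to SREBP1 as well as SREBP2, had 6 of 10 lower in replicate 2 and 1 higher, with a median of -0.61. Over all genes tested, 25.7% were lower and 27.7% higher. The desaturase Fads2 differed by -2.13, Acss2, which makes acetyl-CoA from acetate, by -1.96 and Me1, malic enzyme, by -1.17. Scd1 differed by -0.90, Fads1 by -0.67 and Scd2 by -0.55, whereas Fasn, fatty acid synthase, was slightly higher at 0.20.

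**Figure D5:**
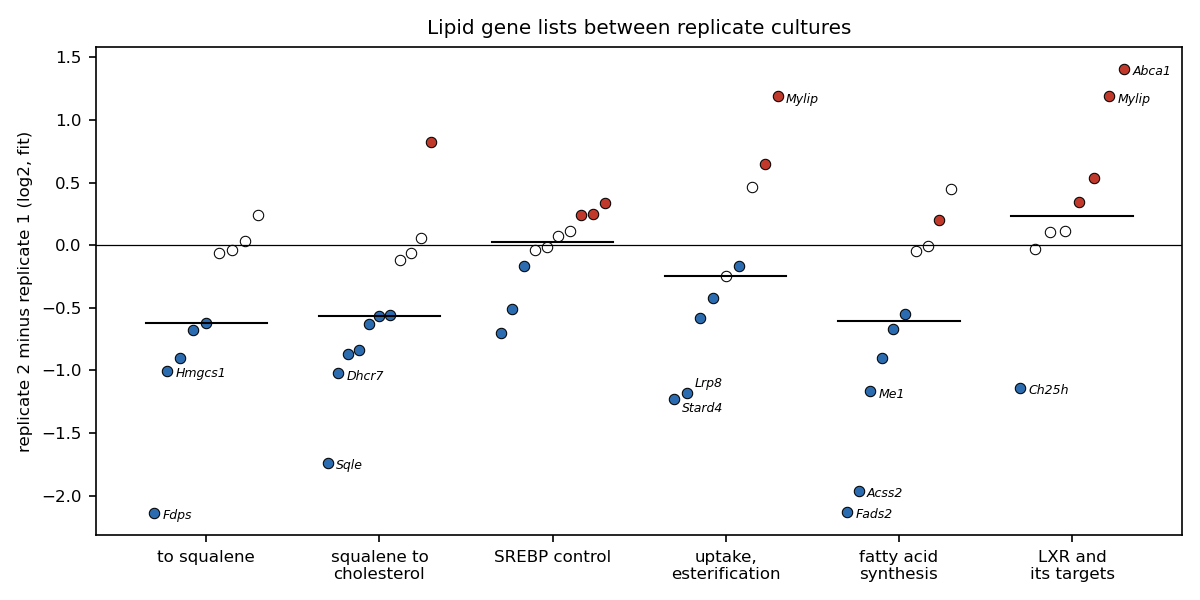
Replicate 2 minus replicate 1 log2 difference of the genes of each list, with blue (lower) and red (higher) points for genes that pass an adjusted p under 0.1 in edgeR and a line at the list median. The synthesis lists have medians of -0.62 and -0.57 and fatty acid synthesis one of -0.61, and the LXR receptors and targets spread to both sides of 0.

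The genes most like the members in pattern over the 4 libraries, by the root mean square of the log2 distance to the members' median, were Gm7694 at 0.0248, Rnd3 at 0.0263, Slc7a11 at 0.0289, Ptges at 0.0291 and Gadd45a at 0.0391. None of these 5 is on the sterol lists. Of the 48 other genes of the lists, 2 ranked in the first 100, Mvd at 39 and Hsd17b7 at 75.

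Markers of the cells in the cultures also differed between the replicates, and some differed between Vehicle and EGCG of replicate 1. Their part in the differences above, by replicate or by treatment, was not tested. Proliferation markers were lower in replicate 2 for 6 of 6 genes, with a summed level of 199.951 and 214 CPM in replicate 1 and 138 and 152 CPM in replicate 2. Microglial markers were mixed, with 4 of 7 higher, Csf1r, Cx3cr1, Aif1 and P2ry12, and 2 lower, Itgam and Tmem119, and they summed to 2707 to 4117 CPM. The shares over all genes tested were 25.7% lower and 27.7% higher. Astrocyte markers summed to 13.5 to 19.0 CPM, most of it Aldh1l1, and EGCG replicate 1 stood apart in several of the others. In the order Vehicle and EGCG of replicate 1, then Vehicle and EGCG of replicate 2, Gja1 had 160, 1, 66 and 107 reads, Aqp4 had 20, 0, 5 and 12, and Gfap had 12, 2, 22 and 47. The range for oligodendrocyte markers was 76.2 to 79.5 CPM, most of it Mbp, while the defining gene Mog had 0, 0, 0 and 1 reads. Stromal markers also set EGCG replicate 1 apart, with a summed level of 4.77 CPM against 154 to 413 CPM in the other three libraries. Pdgfra, on the same list, was the exception and made up most of that sum, at 4.31 CPM there, 3.64 CPM in Vehicle replicate 1 and no more than 1.69 CPM in replicate 2. In edgeR fits without the treatment term, chosen after seeing the data, 1 library at a time was left out. The median replicate difference of the 7 genes was then -0.99 without EGCG replicate 1 and -0.75 without Vehicle replicate 1. It was -0.85 without EGCG replicate 2 and -0.88 without Vehicle replicate 2. These fits did not test the part of the marker differences. Fewer cells of a type and less RNA per cell cannot be told apart in these bulk libraries.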

How the data were processed

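RNA was prepared as directional poly(A) libraries. Per the labels, reads were aligned with HISAT2 to GRCm38.p6, and the authors deposited read counts per gene, 1 table for each replicate number. The counting program was not given in the sources used here. The tables were joined on 54532 gene identifiers with the same annotation in both, and unannotated loci (697 and 329) and genes outside the 22046 protein-coding genes were left out. Unannotated loci held 0.11% to 0.156% of reads. A floor of 3 counts was 0.0533 to 0.0918 CPM. Intervals cover counting error only, unless from a fit.

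Counts were tested with the edgeR 4.0.16 quasi-likelihood test after TMM scaling (R 4.3.3), with Benjamini-Hochberg adjustment over 13811 genes of at least 10 summed counts. EGCG was compared with Vehicle by treatment alone, with replicate as a block as the alternative, and replicate 2 with replicate 1 in the fit of treatment and replicate. Log2 CPM used a prior count of 2. DESeq2 1.42.0, other scalings, other filters and leave-one-out fits were alternatives. The labels number the replicates, and both libraries of a number share a table. The differences between replicates in Vehicle and in EGCG correlated across 13811 genes, which are not independent, at r = 0.641. P-values measure the spread between these libraries, and those of the replicate comparison do not measure spread between cultures. No library was a copy of another (chi-square per gene 10.32 to 288.6).

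Tested on simulated data in which 200 genes carried a log2 difference of 1.5, the EGCG comparison without a block recovered 0% of them in edgeR and 77% in DESeq2 (13705 genes). The blocked one recovered 100% in edgeR with 15 false calls (13706 genes), and the replicate comparison 100% in edgeR with 20 false calls (13692 genes). The changed genes had at least 200 summed counts, more than Fdps, and all genes had the same fixed dispersion. Smaller differences were not simulated. Promoter and pseudogene matches used RefSeq and GENCODE M21 transcripts, the latter with BLAST 2.17.0 at 90% identity over 200 bases. Named genes were the 7 members, list genes past the threshold or with the 2 largest and 2 smallest values, and the 5 most similar genes. The members and lists were chosen with earlier results of these data known. Some genes first listed are not reported here.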

Additional observations from a re-analysis of the deposited data

How the results depend on the processing

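The EGCG result for the 7 genes, 0 past an unadjusted p of 0.05, was the same in 12 alternatives, with a smallest p of 0.156 in edgeR or DESeq2. The number of all genes past that threshold, 16, was 444 with the replicate block in edgeR, 153 with the block in DESeq2, 3 with 10 counts required in every library, 35 with all biotypes, and 8 to 134 when 1 library was left out. At an adjusted p under 0.1 the count of 0 became 1 with the replicate block in edgeR, 1 in DESeq2 and 7 in DESeq2 with the block, and stayed at 0 in the leave-one-out fits. The pairing by replicate number changed no call of the 7 genes, but turned the sign of Sqle to 0.11 in both edgeR and DESeq2 with the replicate block, and Hmgcs1 fell to -0.011 with library totals only. Leaving out 1 library moved the median EGCG change of the 7 between -0.60 and 0.50, and it moved Hmgcs1 between -0.57 and 0.61, Idi1 between -0.65 and 0.26, Fdps between -1.50 and 1.66, Sqle between -0.94 and 1.31, Cyp51 between -0.61 and 0.40, Insig1 between -0.31 and 0.50, and Srebf2 between -0.32 and 0.23. These leave-one-out fits were by treatment alone, and treatment was then unbalanced over replicate. Their values thus take in part of the replicate difference and do not measure the EGCG change alone. With all libraries, the EGCG fit without a block left the replicate difference in its error, and its simulated recovery in edgeR was 0%.

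The replicate difference kept its sign for the 7 genes in every alternative. Calls numbered 7 of 7, except 6 in DESeq2 (Idi1 adjusted p = 0.113) and 6 with 10 counts in every library, which removed Fdps. Of all genes, 3553 of 13811 were called lower in replicate 2 in the main fit. That number was 2507 of 13811 in DESeq2 and 3775 of 11620 with 10 counts in every library. In the other alternatives on all libraries it ran from 3025 of 13811 with library totals only to 4058 of 17967 with all biotypes. Fits without the treatment term, added after seeing the data, left a replicate with a single library when 1 library was left out. They gave a median of the 7 genes of -0.99 to -0.75. Idi1 and Fdps were not called in every one of them. With the treatment term, leaving out a library left no residual degrees of freedom and gave values only, a median of -0.98 to -0.74. Low counts limit Fdps, with 6 to 48 reads, and how reads it shares with its copies and with Gm43738 were counted was not tested.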
